A study of Mus musculus with 20 samples.

Results

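The genes described here are 7 genes known from mouse oocytes and preimplantation embryos, Ooep, Tcl1, Dppa3, Dppa2, Dppa4, Dppa5a and Crxos1. They were taken by symbol from the gene column of the deposited count tables, where each of the 7 had an entry among the 23361 entries per table. Each was followed through the conversion of mouse embryonic stem cells, cultured in 2i medium, into epiblast stem cells, the primed pluripotent cells that resemble the epiblast after implantation. mRNA was sequenced from PGK cells, a female line, and E14 cells, a male line, at day 0 in 2i, at day 4, at day 10, at days 19 to 23 and at days 27 to 30.

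For differentiation both lines were plated on fibronectin in N2B27 medium with Activin A (labelled 20 ng/ul) and Fgf2 (labelled 12 ng/ul), and were passaged from day 4 onwards. Each line went through 2 differentiation experiments, named diff2 and diff3, so each of the 10 groups holds 2 libraries. At the fourth stage the PGK libraries were from day 23 (diff2) and day 21 (diff3), and the E14 libraries from day 21 and day 19. At the last stage the PGK libraries were both from day 29, and the E14 libraries from day 27 (diff2) and day 30 (diff3). With 1 line for each sex, a difference of sex and one of line cannot be told apart. Titles of the 6 diff2 libraries from the first 3 stages include a library code, unlike all other titles, and the diff3 day 0 libraries are titled 2i although their cell type label reads ESCs-EpiSCs. Nothing in the labels says more of how independent diff2 and diff3 were, so the p-values measure the spread between these libraries.

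Library totals ran from 2020254 to 26936415 counts, and the E14 diff3 libraries at day 4 (2020254) and day 0 (3376500) were the shallowest. The summed level of 16 naive pluripotency markers was 194 to 212 CPM (counts scaled to a library total of 1000000) in PGK cells at days 27 to 30, against 6719 to 8357 CPM on day 0, and 239 to 292 CPM in E14 cells, against 7790 to 10245 CPM. The 13 primed markers summed to 3094 to 3140 CPM in PGK cells at days 27 to 30, against 325 to 398 CPM on day 0, and to 2541 to 3666 CPM in E14 cells, against 204 to 220 CPM. These marker sums moved with the labelled conversion from naive to primed cells in both lines. Markers of other cell types moved too. Endoderm and fibroblast markers rose in both lines, and Foxa2 is on both the endoderm and the primed list. The 6 primordial germ cell markers fell. In PGK cells they summed to 136 to 139 CPM at days 27 to 30, against 443 to 553 CPM at day 0. In E14 cells they summed to 103 to 160 CPM, against 631 to 714 CPM. The 6 trophoblast markers summed to 150 to 176 CPM in PGK cells, against 98.3 to 108 CPM, and their sums overlapped in E14 cells. The 9 endoderm markers summed to 627 to 889 CPM in PGK cells at days 27 to 30, against 19.7 to 22.8 CPM at day 0, and to 596 to 714 CPM in E14 cells, against 25.7 to 62.5 CPM. The 10 fibroblast and feeder markers summed to 386 to 395 CPM in PGK cells, against 13.6 to 23.5 CPM, and to 337 to 533 CPM in E14 cells, against 0 to 4.62 CPM. At days 27 to 30 all 10 fibroblast markers had counts in both lines, as did 8 of the 9 endoderm markers in PGK cells and all 9 in E14 cells. Their part in the late differences below was not tested. Because these are bulk samples, fewer cells carrying a transcript and less transcript per cell cannot be told apart in any value below.

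Many genes first named for oocytes or early embryos are also transcribed in naive embryonic stem cells, whose DNA carries little methylation in 2i, and are shut off when the epiblast implants and its genome is methylated anew. Ooep encodes a KH-domain protein of the subcortical maternal complex, a protein assembly at the cortex of the oocyte that mouse embryos need for their first cleavages. Tcl1 encodes a coactivator of Akt kinases that is supplied by the oocyte and is also made in embryonic stem cells. Dppa3, also called Stella, protects the maternal genome from demethylation in the zygote and can keep Uhrf1, the recruiter of the maintenance methyltransferase, away from chromatin. Dppa2 and Dppa4 encode SAP-domain proteins that bind chromatin together and help to activate genes of the 2-cell stage. Dppa5a encodes another KH-domain protein and is a common marker of embryonic stem cells, and Crxos1 is a homeobox gene next to Crx.

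Several members sit beside each other in the genome (GRCm38, GENCODE M21). Ooep (chr9:78376109-78378725, minus strand) lies 7931 bp from Dppa5a (chr9:78367052-78368177, minus strand). Dppa4 (chr16:48283733-48294237, plus strand) lies 9670 bp from Dppa2 (chr16:48303908-48319723, plus strand). Dppa3 (chr6:122626410-122630272, plus strand) lies between Gdf3, 16322 bp away, and Nanog, 77216 bp away. Tcl1 is at chr12:105216750-105222793 on the minus strand, 9756 bp from Tcl1b4, and Crxos1, annotated as Crxos, is at chr7:15882617-15904020 on the plus strand, 2648 bp from Crx. No member overlapped another annotated gene. Counts of Dppa5a and Dppa3 are uncertain to the extent that reads were shared with the copies Dppa5b, Dppa5c and Dppa3-ps that RefSeq lists.

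Of the 7 members, 3 had promoter windows in the RefSeq sequence table (GRCm38.p6), and these are shown: Ooep, Tcl1 and Crxos1. Each window is the 250 bases before a RefSeq start, and only the bases outside the GENCODE gene are printed, 5′ to 3′ on the gene's strand, with CpG dinucleotides in capitals. The shown bases are chr9:78378726-78378838 (113 bases), chr12:105222794-105222987 (194 bases) and chr7:15882367-15882616 (250 bases, the outermost of 3 Crxos starts).
Ooep: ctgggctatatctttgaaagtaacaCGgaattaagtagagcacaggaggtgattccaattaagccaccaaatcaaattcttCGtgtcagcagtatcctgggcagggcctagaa
Tcl1: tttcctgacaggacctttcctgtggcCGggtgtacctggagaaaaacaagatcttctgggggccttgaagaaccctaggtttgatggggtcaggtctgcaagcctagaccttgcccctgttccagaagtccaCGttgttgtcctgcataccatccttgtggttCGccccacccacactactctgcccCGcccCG
Crxos1: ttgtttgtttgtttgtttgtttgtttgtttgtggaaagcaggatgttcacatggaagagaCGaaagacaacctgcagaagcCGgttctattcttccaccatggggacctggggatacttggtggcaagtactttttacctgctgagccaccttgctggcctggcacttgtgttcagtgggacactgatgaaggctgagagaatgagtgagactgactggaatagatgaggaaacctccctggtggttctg
The full Ooep window held 11 CpGs, 9 of them in the 100 bases nearest the start, and 2 are in the part shown. The full Tcl1 window held 7 CpGs, of which 5 are shown, and the outermost Crxos1 window held 2. Over all 32851 windows the median was 6 CpGs and the quartiles were 2 and 16, so the Ooep and Tcl1 windows lay between the quartiles. The GC box CCGCCC, searched on both strands, was found in the full windows of Ooep and Tcl1, as in 32.7% of all windows, and not in the Crxos1 window shown. The E-box CACGTG, also searched on both strands, was in none of these 3 windows and in 6.02% of all windows. No methylation or binding was measured here, so these letters are a description of the loci.

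In 2i all 7 genes were transcribed in both PGK libraries, and Dppa3 was at 0 counts in E14 diff3. Dppa5a stood far above the others per length, with 1957 and 1505 CPM per kilobase of exon in PGK diff2 and diff3 and 1582 and 1302 in E14. In PGK cells the mean level per kilobase then ran from Ooep (109 ± 65.5, SD, n = 2) through Tcl1 (96.0 ± 41.4), Dppa3 (48.0 ± 28.0), Dppa4 (21.6 ± 5.23) and Crxos1 (21.4 ± 0.855) to Dppa2 (7.89 ± 6.41). In E14 cells it ran from Tcl1 (60.1 ± 7.15) through Ooep (43.7 ± 39.5), Crxos1 (20.3 ± 1.62), Dppa4 (15.5 ± 7.61) and Dppa2 (6.45 ± 0.976) to Dppa3 (2.05 ± 2.90). The libraries of neighbours in this order overlapped, except for Dppa5a above the gene next to it in both lines, for Dppa3 above Dppa4 and Crxos1 above Dppa2 in PGK cells, and for Dppa4 above Dppa2 and Dppa2 above Dppa3 in E14 cells. By days 27 to 30 no member was above 4 CPM in any library.

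**Figure D1:**
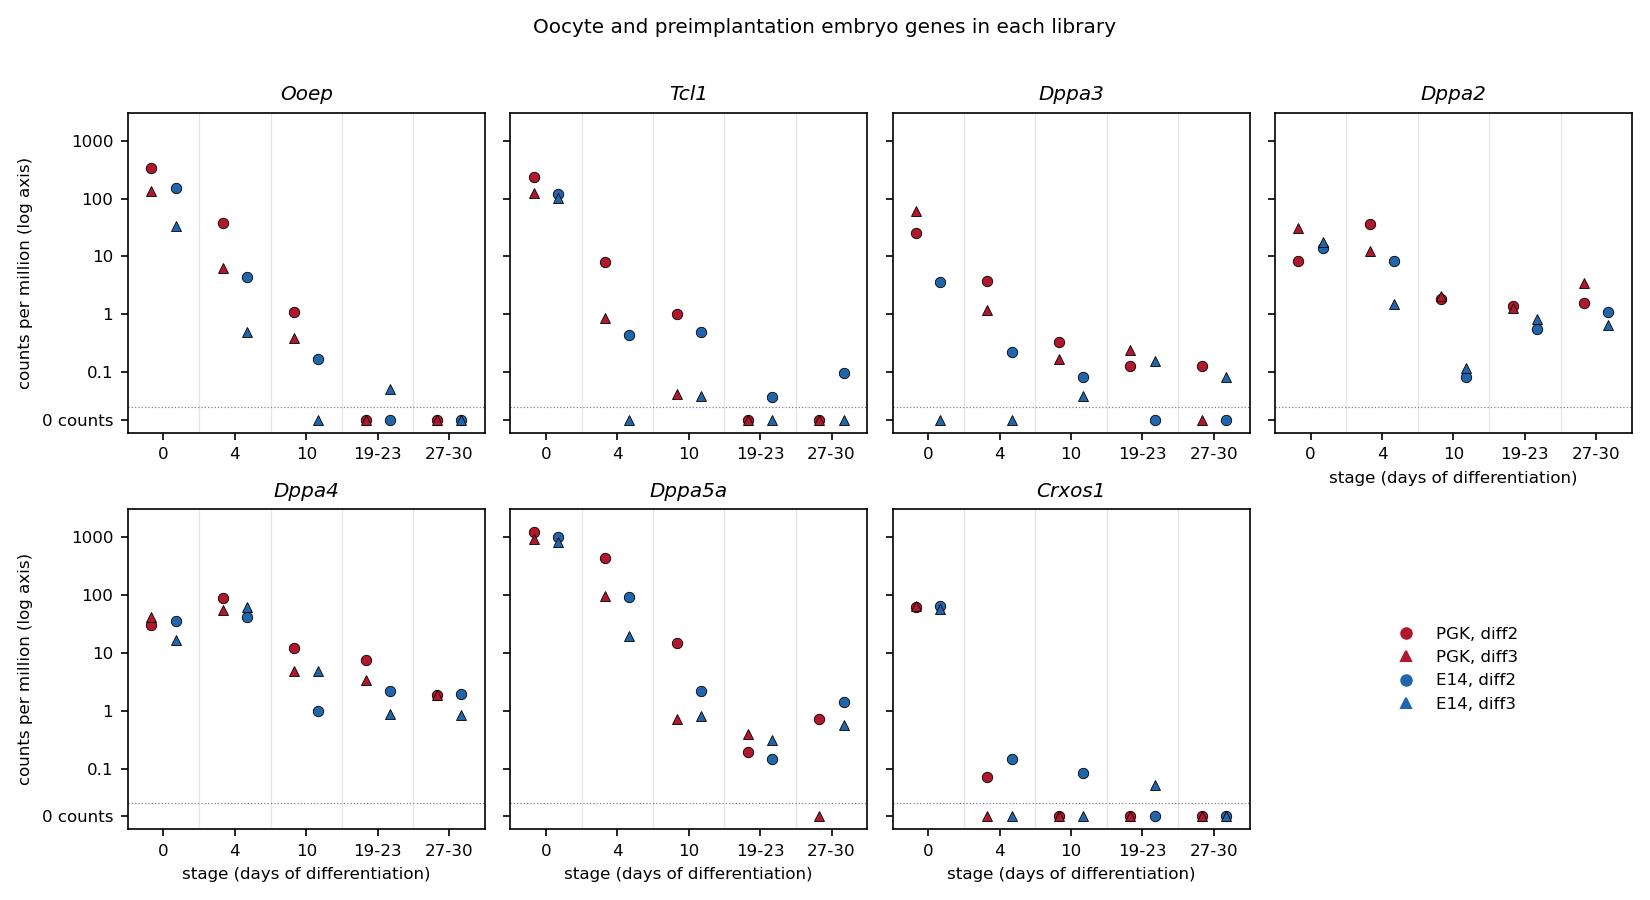
Level of each gene in CPM (log axis, with 0 counts drawn below the dotted line) against stage in days, with PGK in red left of E14 in blue, circles for diff2 and triangles for diff3. Crxos1 is at or near 0 from day 4, Ooep and Tcl1 reach 0 counts in PGK cells by days 19 to 23, and Dppa4 is at 42.2 to 89.5 CPM on day 4.

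The first question the design poses is what happened within the first 4 days after the switch from 2i. Crxos1, Tcl1 and Ooep fell in both lines, Dppa3 fell in PGK cells and Dppa5a fell in E14 cells, while neither Dppa2 nor Dppa4 passed the test in either line. The test was edgeR's quasi-likelihood test with Benjamini-Hochberg adjustment over all genes of the line's fit, called at an adjusted p under 0.05. It called 4 of 7 members lower at day 4 than at day 0 in PGK cells, beside 6.44% of the 15284 genes tested, and 4 of the 6 that passed the low-count filter in E14 cells, beside 4.4% of 14501 genes. The median log2 fold change of all genes was -0.01 in PGK cells and 0.15 in E14 cells. Dppa3 did not pass the filter in the E14 fit and has no test there. Crxos1 in both lines and Tcl1 in E14 cells passed the filter through their day 0 libraries alone, so their calls could only be lower.

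Crxos1, which encodes homeodomain proteins, was at or near 0 from day 4 on. In PGK cells it had 0.0701 and 0 CPM on day 4 (diff2, diff3), against 61.4 and 64.9 CPM on day 0, which is 1 count against 2145. E14 cells had 0.147 and 0 CPM on day 4, against 63.3 and 56.6 CPM on day 0, or 2 counts against 1040. Every day 0 library was thus far above every later one, and no later library of either line held more than 2 counts. The ratio of pooled CPM, day 0 over day 4, was 2301 in PGK cells (exact 95% interval 412.5 to 90920) and 483.4 in E14 cells (133.5 to 3997), intervals that cover counting error only. The falls passed the test with adjusted p of 0.000404 in PGK and 0.00468 in E14 cells. Without the E14 day 4 library of diff2 or that of diff3 the E14 adjusted p was 0.0546 and 0.0523. At days 27 to 30 Crxos1 had 0 counts in all 4 libraries and was at least 948-fold lower than at day 0 in PGK cells and at least 906-fold lower in E14 cells, with 3 counts over the group's libraries as the floor.

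Tcl1, the Akt coactivator, was also nearly gone at day 4. It had 231 and 123 CPM in PGK cells at day 0 (diff2, diff3), 8.0 and 0.868 CPM on day 4, 1.01 and 0.0429 CPM on day 10, and 0 counts in all 4 later libraries. E14 cells had 120 and 102 CPM on day 0, 0.442 and 0 CPM on day 4, 0.499 and 0.0391 CPM on day 10, 0.0371 and 0 CPM at days 19 to 23, and 0.0961 and 0 CPM at days 27 to 30. All later libraries of a line lay below both of its day 0 libraries. From day 0 to day 4 the log2 fold change was -5.42 (SE 1.12, adjusted p = 0.0146, edgeR) in PGK cells and -8.28 (SE 1.29, adjusted p = 0.00329) in E14 cells. The PGK call was lost without the day 0 library of diff2 (adjusted p = 0.10) or of diff3 (0.0812), and without the low-count filter (0.197). At days 27 to 30 Tcl1 was at least 2660-fold lower than at day 0 in PGK cells, and the E14 ratio of pooled CPM, day 0 over days 27 to 30, was 2642 (exact 95% interval 730.5 to 21830). Both late falls passed the test, with adjusted p of 0.00132 and 0.000949, the PGK one at 0.0623 without the filter.

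Ooep, the maternal-complex gene, was lower at each stage up to days 19 to 23 in PGK cells. There it had 332 and 134 CPM on day 0, 37.7 and 6.26 CPM on day 4, 1.10 and 0.386 CPM on day 10, and 0 counts in the 4 later libraries. E14 cells had 153 and 33.8 CPM on day 0, 4.34 and 0.495 CPM on day 4, 0.166 and 0 CPM on day 10, 0 and 0.0511 CPM at days 19 to 23, and 0 counts at days 27 to 30. The day 4 libraries lay below both day 0 libraries in each line, and in PGK cells the day 10 libraries lay below both day 4 libraries. In E14 cells 1 and 2 counts at these stages (day 4 of diff3, day 10 of diff2) leave that order unresolved. The day 4 log2 fold change was -3.48 (SE 0.83, adjusted p = 0.0260, edgeR) in PGK cells and -5.08 (SE 1.27, adjusted p = 0.0349) in E14 cells. Both calls were lost in some alternatives. The PGK adjusted p was 0.137 and 0.0660 without the day 0 library of diff2 and of diff3 and 0.241 without the filter. In E14 cells it was 0.0656, 0.0929 and 0.212 without the day 0 library of diff2 and the day 4 libraries of diff2 and diff3, and 0.0579 with DESeq2. The falls over the whole course were at least 3503-fold in PGK cells (adjusted p = 0.000493) and at least 1413-fold in E14 cells (adjusted p = 0.00270).

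Dppa3, the Uhrf1-binding protector of maternal methylation, started from different levels in the lines. PGK cells had 25.2 and 60.5 CPM on day 0, 3.72 and 1.19 CPM on day 4, 0.338 and 0.171 CPM on day 10, 0.128 and 0.240 CPM at days 19 to 23, and 0.126 and 0 CPM at days 27 to 30. E14 cells had 3.65 and 0 CPM on day 0, which is 49 counts and 0 counts, and 0.221 and 0 CPM on day 4. A count of 0 in the shallow E14 diff3 day 0 library allows up to 0.888 CPM, still below every PGK day 0 value. In PGK cells the day 4 log2 fold change against day 0 was -4.21 (SE 0.84, adjusted p = 0.00806, edgeR), with adjusted p of 0.0673 without the day 0 library of diff3 and 0.0533 without the day 4 library of diff3. At days 27 to 30 PGK cells held 3 counts against 1605 at day 0, a ratio of pooled CPM of 715.3 (exact 95% interval 244.3 to 3472, adjusted p = 0.000328). E14 cells held 2 counts against 49, a ratio of 66.23 (17.38 to 562.2) with no test. The 49 counts were all in diff2 and the 2 late counts in diff3, so this fall rests on diff2 alone.

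**Figure D2:**
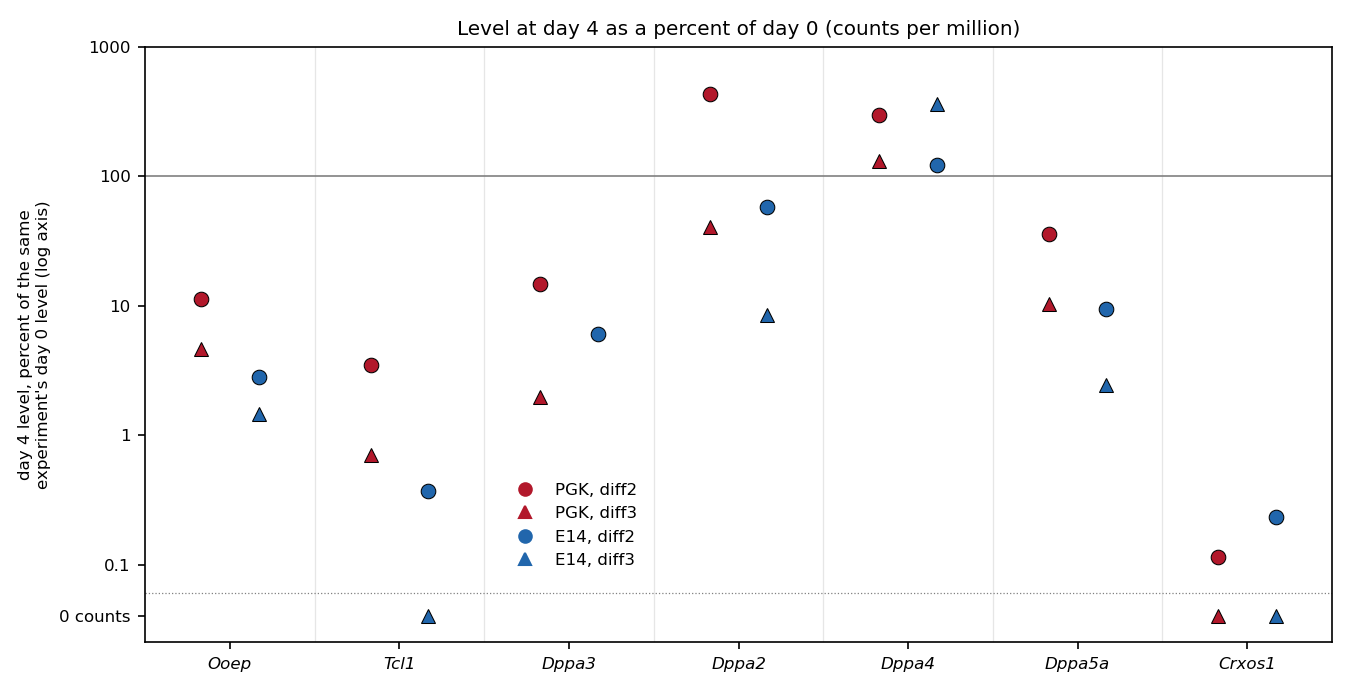
Level at day 4 as a percent of the same line's and experiment's level at day 0 (log axis, with 0 counts drawn below the dotted line) for each gene, PGK in red left of E14 in blue, circles for diff2 and triangles for diff3. Dppa4 is at 121% or more in all 4 pairs, Crxos1 is at 0.233% or lower or at 0 counts, and Dppa3 in E14 diff3 has no point because its day 0 count was 0.

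Dppa5a, the most abundant member, was called lower at day 4 in E14 cells and not in PGK cells. It had 1211 and 932 CPM in PGK cells at day 0, 434 and 95.4 CPM on day 4, 14.5 and 0.729 CPM on day 10, 0.192 and 0.40 CPM at days 19 to 23, and 0.712 and 0 CPM at days 27 to 30. E14 cells had 979 and 806 CPM on day 0, 92.1 and 19.8 CPM on day 4, 2.16 and 0.822 CPM on day 10, 0.148 and 0.307 CPM at days 19 to 23, and 1.39 and 0.570 CPM at days 27 to 30. The day 4 libraries lay below both day 0 libraries in each line, and the diff3 library was the lower one in each. The day 4 log2 fold change against day 0 was -3.94 (SE 0.71, adjusted p = 0.00718, edgeR) in E14 cells, whereas the -2.09 (SE 1.02, adjusted p = 0.205) in PGK cells did not pass. Over the whole course the mean level was 3009-fold lower at days 27 to 30 in PGK cells (log2 fold change -11.55, SE 1.62, adjusted p = 0.000744) and 909-fold lower in E14 cells (-9.84, SE 0.94, adjusted p = 0.000283). Of the late PGK libraries diff3 was at 0 counts: without it the log2 fold change was -10.63, and without diff2 the late group is at 0 counts and has no fold; the call was kept both times. In E14 cells the log2 fold change ranged from -10.62 to -9.28 when 1 library was left out.

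Dppa4 and Dppa2, the chromatin-binding pair, were not called lower or higher at day 4 in either line. Dppa4 had 29.8 and 42.1 CPM in PGK cells at day 0, 89.5 and 55.5 CPM on day 4, 12.1 and 4.80 CPM on day 10, 7.54 and 3.40 CPM at days 19 to 23, and 1.84 and 1.84 CPM at days 27 to 30. In E14 cells it had 34.8 and 16.9 CPM on day 0, 42.2 and 61.4 CPM on day 4, 0.998 and 4.93 CPM on day 10, 2.19 and 0.869 CPM at days 19 to 23, and 1.92 and 0.855 CPM at days 27 to 30. Both day 4 libraries were above both day 0 libraries in each line, with means of 72.5 ± 24.0 CPM on day 4 and 35.9 ± 8.69 CPM on day 0 in PGK cells and 51.8 ± 13.6 and 25.8 ± 12.6 CPM in E14 cells (SD, n = 2 each). These differences did not pass the test: the log2 fold change was 0.95 (SE 0.50, adjusted p = 0.242, edgeR) in PGK cells and 1.0 (adjusted p = 0.516) in E14 cells.

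Dppa2 had 8.20 and 30.4 CPM in PGK cells at day 0 (diff2, diff3), 35.8 and 12.3 CPM on day 4, 1.86 and 2.06 CPM on day 10, 1.41 and 1.28 CPM at days 19 to 23, and 1.55 and 3.49 CPM at days 27 to 30. The experiments thus moved in opposite directions, to 436% of day 0 in diff2 and to 40.4% in diff3 at day 4, and the fitted log2 fold change of 0.24 (adjusted p = 0.863, edgeR) turned to -0.41 without the day 0 library of diff2 and to -0.66 without the day 4 library of diff2. E14 cells had 14.1 and 17.5 CPM on day 0, 8.17 and 1.48 CPM on day 4, 0.0832 and 0.117 CPM on day 10, 0.557 and 0.818 CPM at days 19 to 23, and 1.11 and 0.651 CPM at days 27 to 30. The E14 libraries were lowest at day 10, with 4 counts in all, and both groups after day 10 lay above it. That step had no test result past the threshold.

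Between day 4 and day 10 the test called Dppa4 lower in PGK cells (log2 fold change -3.15, SE 0.54, adjusted p = 0.0242, edgeR), beside 0.465% of genes called lower, and Dppa5a lower in E14 cells (-5.34, SE 0.79, adjusted p = 0.0267), beside 0.0414%. In PGK cells Ooep (-5.02, adjusted p = 0.0549), Dppa2 (-3.63, 0.0559), Dppa5a (-5.22, 0.0671), Dppa3 (-3.32, 0.131) and Tcl1 (-3.34, 0.316) did not pass. In E14 cells neither Dppa4 (-4.06, adjusted p = 0.157) nor Dppa2 (-5.49, adjusted p = 0.140) passed. These calls turned on single libraries and on the fit. The Dppa4 adjusted p was 0.0959 without the PGK day 4 library of diff2 and 0.149 without the PGK day 10 library of diff3. The E14 Dppa5a adjusted p was 0.330 without the day 4 library of diff2, and 0.0974 and 0.117 without the day 10 libraries of diff2 and diff3. With the experiment as a replicate block the PGK count at this step was 4 of 7, with Ooep (adjusted p = 0.00166), Dppa2 (0.0371) and Dppa5a (0.0441) joining Dppa4. That fit called 351 of the 15284 genes in either direction, against 231 in the main fit.

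**Figure D3:**
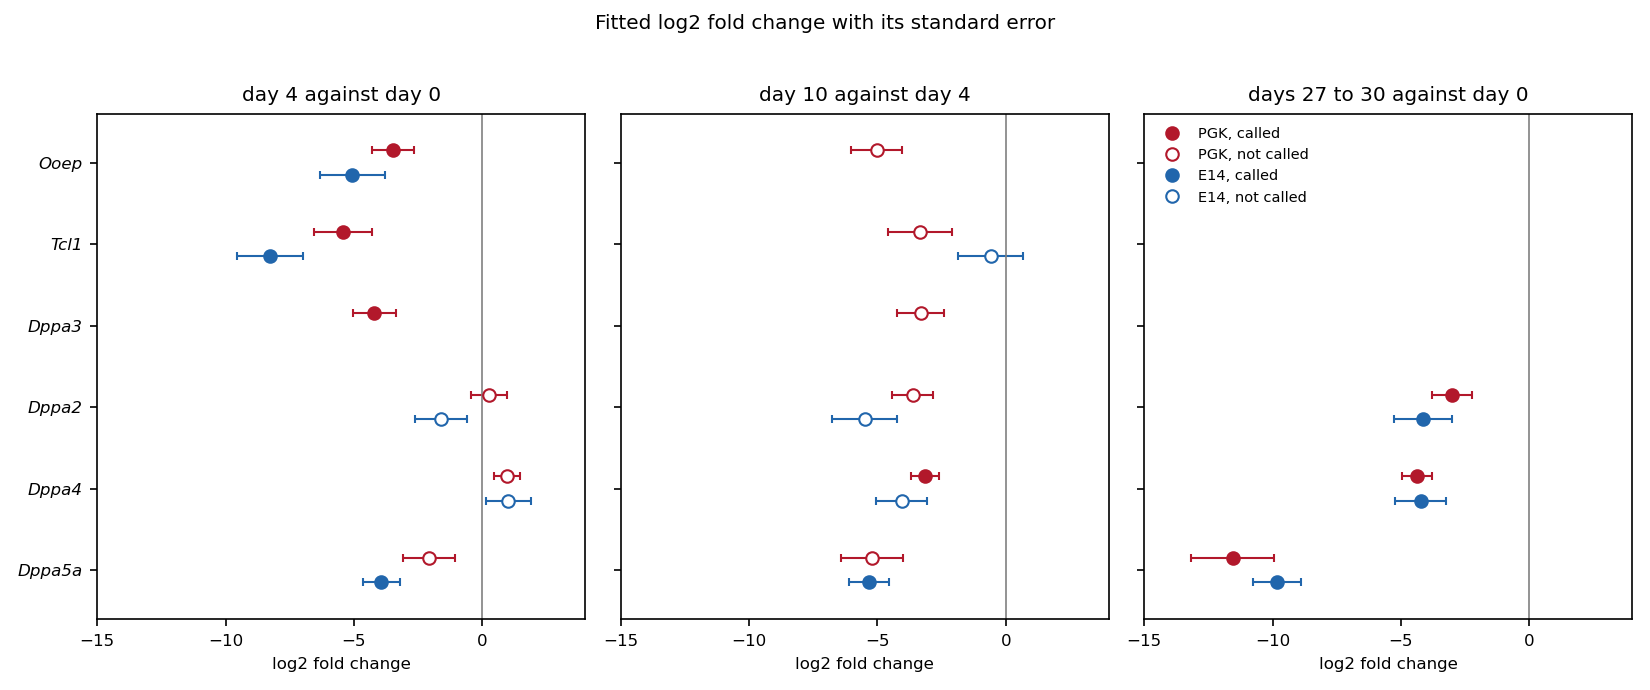
Fitted log2 fold change (x axis) with its standard error for day 4 against day 0, day 10 against day 4, and days 27 to 30 against day 0, PGK in red above E14 in blue, filled where called at an adjusted p under 0.05. Only genes with more than 3 counts in both groups are drawn, so Crxos1 is not shown. Dppa4 lies to the right of 0 at day 4 in both lines and at -3.15 (PGK) and -4.06 (E14) in the next step.

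After day 10 no step passed the test. The steps to days 19 to 23 and to days 27 to 30 called 0 members and 0% of genes in either line (edgeR). At an unadjusted p under 0.05 they gave 208 and 231 genes in PGK cells and 938 and 106 in E14 cells, and DESeq2 called 5, 4, 274 and 4 genes. Measured against day 0 the end point called all 7 members lower in PGK cells, beside 12% of genes, and all 6 members with a test lower in E14 cells, beside 4.99%. Crxos1, Tcl1 and Ooep in both lines, and Dppa3 in PGK cells, passed the low-count filter through stages before days 19 to 23 alone. For these a call at the end point could only be lower. The residual level differed between members. Dppa5a was at 1.39 and 0.570 CPM in E14 cells at days 27 to 30, close to Dppa2 and Dppa4 there, and at 0.712 and 0 CPM in PGK cells. Dppa2 and Dppa4 were still counted in every library at days 27 to 30, at 0.651 to 3.49 CPM, with log2 fold changes against day 0 of -3.02 (SE 0.77, adjusted p = 0.0171) and -4.36 (SE 0.58, adjusted p = 0.000582) in PGK cells. In E14 cells they were -4.15 (SE 1.13, adjusted p = 0.0348) and -4.23 (SE 0.99, adjusted p = 0.0195). The adjusted p of Dppa2 was 0.105 without the PGK day 0 library of diff3 and 0.0994 without the PGK days 27 to 30 library of diff2. Without the E14 days 27 to 30 libraries of diff2 and diff3 it was 0.207 and 0.286 for Dppa2 and 0.0840 and 0.166 for Dppa4. The fold changes with 1 library left out ran from -3.72 to -1.78 for Dppa2 and -4.59 to -4.08 for Dppa4 in PGK cells, and from -4.59 to -3.79 and -4.94 to -3.55 in E14 cells.

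The design next sets PGK against E14 cells. At day 4, 3 of the 7 genes, Ooep, Dppa2 and Dppa5a, were higher in both PGK libraries than in both E14 libraries, where an E14 library at 3 counts or fewer is taken at 3 counts. Tcl1 and Dppa3 had 0 counts in E14 diff3, which allow up to 1.48 CPM, above their 0.868 and 1.19 CPM in PGK diff3, so their order is unresolved. No member passed the test of the line at day 0, day 4 or day 10, beside 0.502%, 0.165% and 0.0636% of 15732 genes called. By the same count, 2 of 7 members lay above E14 at day 0, 3 at day 4, 2 at day 10, 2 at days 19 to 23 and 1 at days 27 to 30, and 0 lay below at any stage. Of the 14979 genes with at least 100 counts over all libraries, 16.4%, 15.2%, 13.7%, 24.1% and 16.1% lay above E14 at these 5 stages. The shares of these genes that lay below E14 were 13.6%, 14.9%, 11.9%, 28.5% and 24.2%. Members at or near 0 counts in both lines at the late stages cannot be ordered. Whether the members differ from these shares was not tested. At day 4 the log2 fold changes, PGK over E14, were 2.86 for Ooep (adjusted p = 0.517, edgeR), 3.58 for Tcl1 (0.563), 2.22 for Dppa2 (0.573), 3.75 for Dppa3 (0.708) and 2.19 for Dppa5a (0.718). With a term for the library code, Ooep passed at day 4 (adjusted p = 0.0378, edgeR), in a fit that called 66 genes, against 26 without the term. The 16 naive markers summed to 945 and 410 CPM in PGK cells at day 4 (diff2, diff3) and to 267 and 293 CPM in E14 cells, and their part in these differences was not tested.

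At day 0 Dppa3 had the largest fitted difference of the members, 4.44 (SE 1.40, adjusted p = 0.189, edgeR). It passed with DESeq2 (adjusted p = 0.0127), which called 700 genes in this comparison, against 79 with edgeR. Without the E14 day 0 library of diff2 the remaining E14 library holds 0 counts, so that fit has no fold to give. At day 10 Dppa2 was at 1.86 and 2.06 CPM in PGK cells and at 0.0832 and 0.117 CPM in E14 cells, a log2 fold change of 4.12 (SE 1.04, adjusted p = 0.438, edgeR, and 0.0272 with DESeq2). There DESeq2 called 78 genes, against 10 with edgeR. The test of whether the change from day 0 to day 4 differed between the lines called 0 of 7 members, beside 0.0763% of genes. The smallest adjusted p among them was 0.768 for Tcl1, whose log2 change was 2.85 (SE 1.66) less negative in PGK cells.

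The experiments differed too. At day 4 the share of the day 0 level that was left was larger in diff2 than in diff3 for all 6 members with more than 3 counts in the 4 PGK libraries of these stages, that is without Crxos1. The same order held for 52.5% of the 12531 genes with that many counts. In E14 cells Dppa4 and Dppa5a alone had that many counts, with Dppa5a in this order and Dppa4 in the opposite one, beside 53.3% of 8836 genes. Ooep kept 11.4% in PGK diff2 and 4.66% in PGK diff3, and 2.84% and, from 1 count, 1.47% in E14 cells. Dppa5a kept 35.9% and 10.2% in PGK cells and 9.41% and 2.46% in E14 cells. Dppa4 in E14 cells was at 121% in diff2 and 364% in diff3. The 16 naive markers, as a sum, also kept a larger share in diff2 in both lines. In PGK cells their sum went from 6719 to 945 CPM in diff2 and from 8357 to 410 CPM in diff3. In E14 cells it went from 7790 to 267 CPM and from 10245 to 293 CPM. Their part in the order of the members was not tested. The diff2 libraries at these stages are also the ones with a library code, so experiment and code cannot be told apart here.

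Ooep was then set beside the other genes of the subcortical maternal complex list: Nlrp5, Tle6, Padi6, Khdc3, Nlrp2, Zbed3 and Nlrp4f. Of these 7, 4 passed the filter in each line, and Khdc3 and Nlrp4f were lower at days 27 to 30 than at day 0 in both. Khdc3, a KH-domain scaffold of the complex, had 0 counts in PGK cells at days 27 to 30, against 14.3 and 13.6 CPM on day 0 (adjusted p = 0.0131, edgeR). In E14 cells it had 0 counts, against 16.3 and 5.63 CPM on day 0 (adjusted p = 0.0281). Nlrp4f had 41.1 and 102 CPM in PGK cells at day 0, 19.5 and 6.17 CPM on day 4 and 0.0419 and 0.189 CPM at days 27 to 30 (adjusted p against day 0 = 0.000228). Tle6 and Zbed3 did not pass in that comparison in either line and were above 3 and 30 CPM at days 27 to 30 in all 4 libraries. Tle6 was lower in between. It had 2.24 and 0.548 CPM on day 4 in PGK cells, against 9.09 and 5.00 CPM on day 0. In E14 cells it had 1.10 and 0 CPM on day 4, against 8.2 and 15.4 CPM on day 0. Nlrp5 and Padi6 reached at most 0.192 and 0.228 CPM in any library, and Nlrp2 had 0 counts in all 20, so these 3 subunit genes were at or near 0 where Ooep was at its highest.

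**Figure D4:**
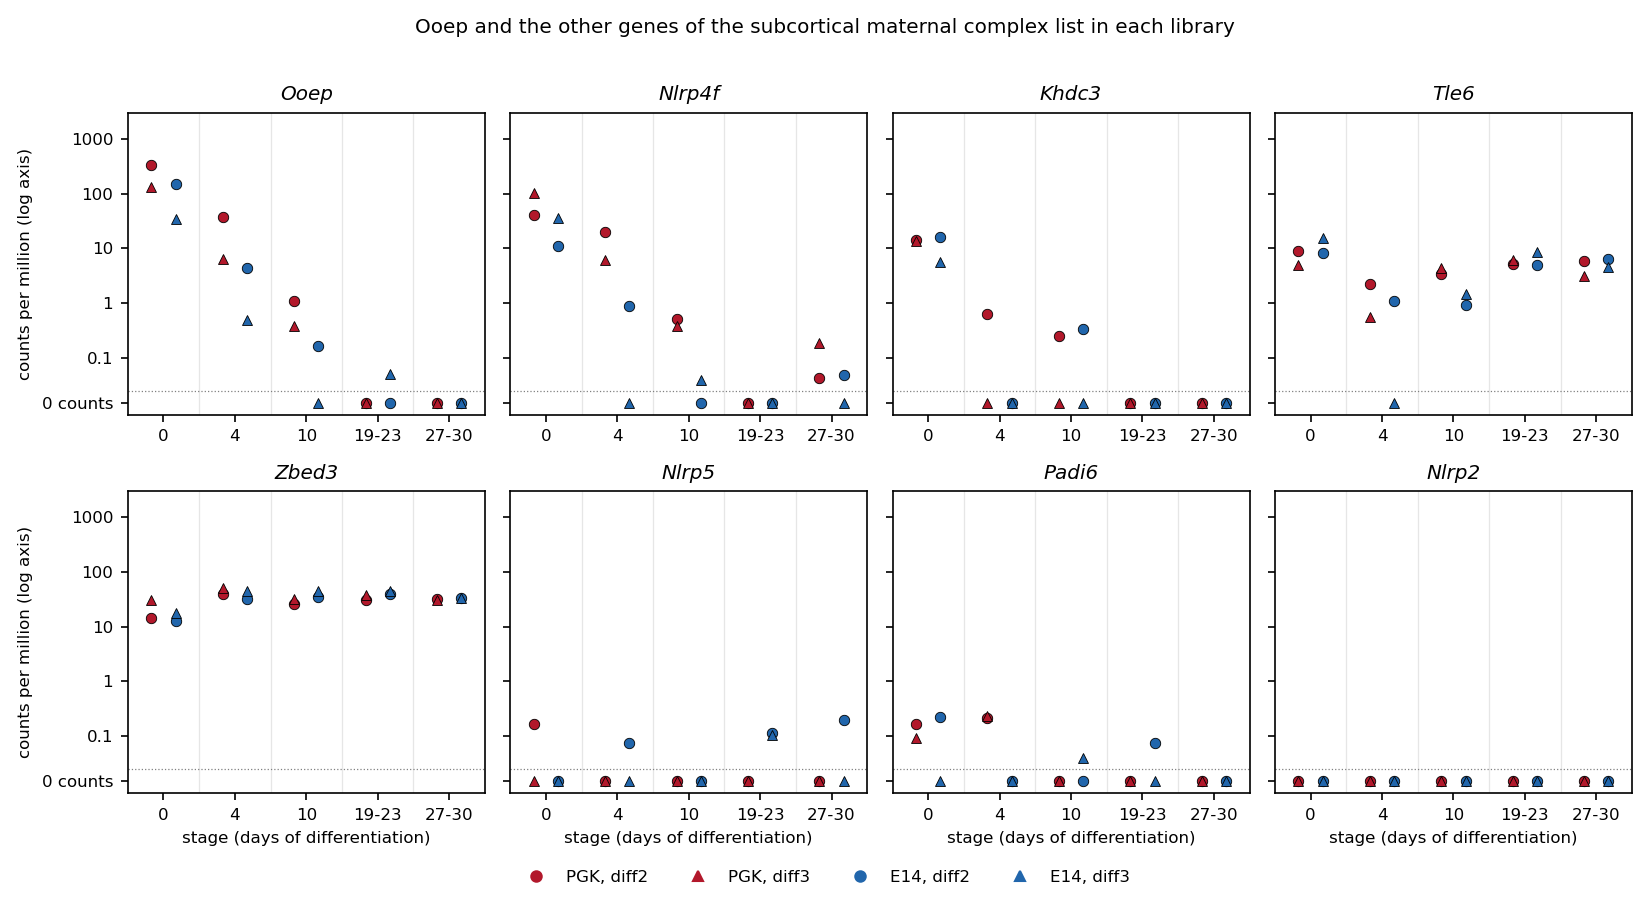
Level of Ooep and 7 other genes of the subcortical maternal complex list in CPM (log axis, with 0 counts drawn below the dotted line) against stage in days, with PGK in red left of E14 in blue, circles for diff2 and triangles for diff3. Ooep, Nlrp4f and Khdc3 go to or near 0 counts, Zbed3 stays between 12.5 and 51.0 CPM, and Nlrp5, Padi6 and Nlrp2 are at or near 0 throughout.

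The paralogs of Tcl1 were barely counted. Tcl1b3 and Tcl1b5 had 0 counts in all 20 libraries, Tcl1b2 reached at most 0.795 CPM, Tcl1b4 0.187 CPM and Tcl1b1 0.0812 CPM, while Mtcp1, the other family member tested, did not pass in either line at day 4 or days 27 to 30. The KH-domain relatives Khdc1a, Khdc1b and Khdc1c had at most 1.08 CPM in any library. Dppa1, a further gene of the Dppa name, had 11.8 CPM in PGK diff3 at day 0, 0.244 CPM in PGK diff2 and 0.0746 and 0 CPM in E14 cells, and 0 counts in every later library.

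Among 30 genes known from oocytes, 12 passed the filter in PGK cells and 10 in E14 cells. Against day 0, 3 of the 12 were lower and 1 higher at days 27 to 30 in PGK cells, beside 12% and 13% of all genes, and 3 of the 10 were lower in E14 cells, beside 4.99%. In each line the 3 lower ones were Dazl and Ddx4, germ cell RNA regulators, and Sohlh2, a transcription factor of early oocytes. The zona pellucida gene Zp2 and the oocyte homeobox genes Obox1, Obox2 and Obox5 had 0 counts in all 20 libraries, and Zp1 reached at most 0.153 CPM. The zona gene Zp3, in contrast, was counted at day 0, with 1.62 and 4.16 CPM in PGK cells and 2.09 and 0 CPM in E14 cells. As a marker list, 9 oocyte and follicle genes summed to 3.65 to 6.31 CPM in PGK cells at day 0 and to 0 to 3.06 CPM in E14 cells, with Zp1 and Zp2 at 0. Before that, Ddx4 was higher at day 4 in PGK cells, with 58.8 and 41.9 CPM on day 4, against 4.63 and 3.27 CPM on day 0 (log2 fold change 3.61, SE 0.72, adjusted p = 0.00789). It was at 0.251 and 0 CPM at days 27 to 30. The gene that was higher in PGK cells was Spin1, a reader of histone methylation, with a log2 fold change of 1.29 (adjusted p = 0.0284).

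Of 24 germ line genes known to be silenced by DNA methylation, 23 passed the filter in PGK cells and 20 of them were lower at days 27 to 30 than at day 0, beside 12% of all genes. In E14 cells 15 of 21 were lower, beside 4.99%, and 1 was higher in each line. In PGK cells 5 of the 23 were lower and 2 higher at day 4 than at day 0, beside 6.44% and 8.35% of all genes, and 14 were lower at day 10 than at day 4, beside 0.465%. In E14 cells 2 of the 21 were lower and 2 higher at day 4, beside 4.4% and 5.16%, and 2 were lower at day 10 than at day 4, beside 0.0414%. Zfp42 (adjusted p = 6.58e-05, edgeR), Dazl (6.99e-05) and Syce1 (0.000194) had the smallest adjusted p among those lower in PGK cells, where Syce1 was at 0 counts at days 27 to 30. The gene that was higher in both lines was Tdrkh, a Tudor-domain piRNA factor, with 51.7 and 45.8 CPM in PGK cells at days 27 to 30, against 1.70 and 0.468 CPM on day 0. The list overlaps the oocyte list in Dazl, Ddx4 and Sohlh2, and no list median is given for either list because many fitted values rest on groups with 0 counts.

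Genes that write, erase or read DNA methylation were counted beside Dppa3. Of these 10 genes, including Prdm14, which restrains Dnmt3 expression in naive cells, 3 were higher and 4 lower at days 27 to 30 than at day 0 in PGK cells, beside 13% and 12% of all genes, and 3 and 3 in E14 cells, beside 8.73% and 4.99%. Dnmt3b, a writer of new methylation, had 872 and 839 CPM in PGK cells at days 27 to 30, against 45.6 and 41.4 CPM on day 0 (log2 fold change 4.22, SE 0.30, adjusted p = 2.47e-05). In E14 cells it rose by 4.98 (SE 0.51, adjusted p = 0.000375). Uhrf1, the partner of Dppa3, was 227 and 241 CPM in PGK cells at days 27 to 30, against 754 and 358 CPM on day 0 (-1.33, SE 0.31, adjusted p = 0.0116). Prdm14 had 0 counts in PGK cells at days 27 to 30, against 95.9 and 131 CPM on day 0 (adjusted p = 0.000175).

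The 2-cell stage genes gave a level to set beside Dppa2 and Dppa4. Of 20 listed, 18 were in the tables and 13 passed the filter in PGK cells. There 0 passed the test at day 4 (edgeR), beside 6.44% of all genes called lower and 8.35% called higher. Zscan4d had 8.63 and 2.60 CPM on day 4 in PGK cells, against 0.406 and 0.701 CPM on day 0. The 9 markers of 2-cell-like cells summed to 28.9 and 8.22 CPM in PGK cells at day 4, against 0.893 and 1.54 CPM on day 0, and to 14.4 and 2.47 CPM in E14 cells at day 4, against 4.40 and 0 CPM. In PGK cells both day 4 sums were above both day 0 sums, whereas in E14 cells they overlapped. By day 10 the sums were 0.514 CPM or less. At days 27 to 30 Zscan4d, with 0 counts, was the 1 of these 13 called lower than at day 0 in PGK cells (adjusted p = 0.0454, edgeR). This stands beside 12% of all genes called lower. In E14 cells 0 of the 8 that passed the filter were called, beside 4.99% of all genes lower and 8.73% higher.

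Genes next to the members were followed as well. Ddx43, a helicase gene next to Ooep, had 0.838 and 0 CPM in PGK cells at days 27 to 30, against 21.02 and 10.8 CPM on day 0 (adjusted p = 0.0260, edgeR), and did not pass in E14 cells (adjusted p = 0.406). Crx, a homeobox gene next to Crxos1, had 1.93 and 0 CPM in PGK cells at days 27 to 30, against 0.325 and 0 CPM on day 0 (adjusted p = 0.435), and 0.673 and 0.977 CPM in E14 cells, against 0 counts (adjusted p = 0.0730). Nanog, a naive transcription factor gene beyond Dppa3, was lower at day 4 than at day 0 in PGK cells (-2.92, SE 0.31, adjusted p = 0.000260, edgeR) and in E14 cells (-2.91, SE 0.45, adjusted p = 0.00330). At days 27 to 30 Nanog was also lower than at day 0 in PGK cells (-4.02, SE 0.33, adjusted p = 4.37e-05, edgeR). The same held in E14 cells (-2.86, SE 0.45, adjusted p = 0.00291). Nanog was then at 74.4 and 46.8 CPM in PGK cells, where Dppa3 held 3 counts in all. Gdf3, a TGF-beta family ligand gene on the other side, had 106 and 27.3 CPM in PGK cells at day 4, against 99.5 and 100.7 CPM on day 0 (adjusted p = 0.642). At days 27 to 30 it was lower in PGK cells (-6.16, adjusted p = 0.00189) and in E14 cells (-4.83, adjusted p = 0.00580). Dppa5a and Ooep, which are neighbours, kept the shares of their day 0 level given above, with the Dppa5a share higher in both PGK pairs and in E14 diff2 at day 4. The E14 diff3 pair rests on 1 count of Ooep.

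The genes whose log2 CPM followed each member most closely over the 20 libraries were found by Pearson's r, as a description in which the libraries share stages, lines and depth. Ooep was followed by Morc1 (0.982), Sohlh2 (0.978) and Triml2 (0.973), and Tcl1 by Prdm14 (0.978), Arl14epl (0.975) and Aqp3 (0.974). Dppa5a was followed by Gdf3 (0.983), Rpl10l (0.976) and Triml2 (0.972), and Crxos1 by Trpm1 (0.987), Nfatc2ip (0.986) and Nkx6-3 (0.985). For Dppa3 they were Ccdc172 (0.967), Otud6a (0.967) and Rhox6 (0.966). The closest genes were less close for Dppa4, with Rps6kl1 (0.907), D1Pas1 (0.890) and Psma8 (0.884), and for Dppa2, with Nlrp4f (0.883), Sarm1 (0.882) and Taf1 (0.878). Among the members themselves r was highest between Ooep and Dppa5a (0.963) and between Ooep and Tcl1 (0.951), and lowest between Dppa4 and Crxos1 (0.444).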

How the data were processed

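Raw counts per gene for the PGK and E14 libraries were used as the authors deposited them. The normalized and variance-stabilized tables were not used. The submitters' processing notes name CASAVA 1.8.2, Cuffdiff, DESeq2 and GRCm38/mm10 without a role; for the aligner, annotation and strand setting, no label or file header used here states any. Per the labels' protocols, samples were kept in Trizol, RNA was extracted with phenol:chloroform and treated with DNase, and libraries followed Illumina's instructions.

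CPM is a count over the library's total, times 1000000. Tests were edgeR 4.0.16 quasi-likelihood fits (R 4.3.3, robust, TMM factors, filterByExpr with a minimum count of 10) with Benjamini-Hochberg adjustment over all genes, at 0.05. Comparisons within a line used that line's 10 libraries and those between lines all 20, giving 14 comparisons. Folds against a group at 0 counts used a floor of 3 counts over that group's libraries, and groups with 1 to 3 counts have exact 95% Poisson-based intervals. The orders of lines and experiments use the same floor per library, a choice added after the values were seen. The intervals and floors cover counting error only. The fits were tested on simulated counts. Promoter letters come from RefSeq and coordinates from GENCODE M21; Crxos1 was matched to Crxos.

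The members, the gene lists and the tests were chosen with earlier results of these data known. Named genes are the 7 members, the genes of the maternal complex, Tcl1, KH-domain and Dppa lists, up to 3 genes with the smallest adjusted p from each other list, partners and neighbours a sentence needs, and the 3 closest patterns per member. Spin1, Zp1, Zp2, Zp3, Obox1, Obox2 and Obox5 were named after their values were seen. The list of Tcl1 partners is not reported here. No 2 libraries held identical counts, and replicates correlated at r = 0.912 to 0.992 (log scale). Experiments pair libraries by label; the correlation of their deviations from the group means had a median of 0.039 in PGK cells (-0.082 to 0.463) and 0.012 in E14 cells (-0.227 to 0.235). Alternatives were another normalization, no filter, DESeq2 1.42.0, the experiment as a replicate block, a term for the library code, and leaving out each library.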

Additional observations from a re-analysis of the deposited data

Results flagged for a closer look

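In CPM, Tcl1 and Dppa2 each differed between stages in opposite directions in the lines over 1 step, with both experiments of a line agreeing in direction. For Tcl1 the E14 direction, and for Dppa2 the PGK direction, are unresolved at the counts there. The difference between the lines was not tested for either gene. The mean level of Tcl1 at day 10 minus that at day 4 was -3.90 CPM in PGK cells and 0.0482 CPM in E14 cells, where the day 10 libraries held 7 counts and the day 4 libraries 6. In E14 diff2 Tcl1 had 6 counts on both days, and in E14 diff3 it had 0 at day 4 and 1 at day 10. The fitted E14 log2 fold change had the opposite sign, -0.59 (SE 1.26, edgeR). The mean level of Dppa2 at days 19 to 23 minus that at day 10 was -0.614 CPM in PGK cells and 0.587 CPM in E14 cells, which held 31 counts at days 19 to 23 and 4 at day 10. In PGK diff2 Dppa2 had 22 counts at both stages, so its CPM differed there by the library total alone. The fitted Dppa2 log2 fold change was -0.55 (SE 0.75, edgeR) in PGK cells. In E14 cells it was 2.59 (SE 1.17, adjusted p = 0.772, edgeR), and neither passed.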

How the results depend on the processing

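The late losses of Ooep, Crxos1 and Dppa5a kept their direction and call in all alternatives run, while counts at day 4 and day 10 depended on the fit. Without the low-count filter the members called were 2 at day 4 in PGK cells (4 with it), 3 at day 10 in PGK cells (1) and 2 at day 10 in E14 cells (1), and the genes called were 439 (231 with the filter) and 139 (27) at day 10, 59 (0) for E14 days 19 to 23, and 181 (79), 71 (26) and 52 (12) for PGK against E14 at day 0, at day 4 and in the day 4 change. RLE factors gave 3 genes for E14 days 19 to 23. With the experiment as a replicate block the members called were 4 at PGK day 10, and the genes 351 there, 11 for E14 days 19 to 23, 43 for the lines at day 0 and 20 for the day 4 change; Dppa2, PGK over E14 at day 0, turned to -0.10, and no call of a member changed apart from those at PGK day 10. The library code term gave 3698 genes at PGK day 4 (2260), 4 members and 655 genes at PGK day 10, 1 member and 66 genes for the lines at day 4, and 185, 20 and 32 genes for the lines at day 0, at day 10 and in the day 4 change. DESeq2 gave 3535 and 2861 (1386) genes at day 4, 855 and 515 genes and 5 and 3 members at day 10, 5 and 274 at days 19 to 23, 4 and 4 in the last step and 3599 (1990) for E14 days 27 to 30 against day 0, in PGK and E14 cells where both are given. For the lines it gave 700, 235, 78 and 200 genes and 1 member each at day 0 and day 10.

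Leaving out 1 library each, the genes called ranged from 1366 to 2210 (PGK) and 474 to 4517 (E14) at day 4, 52 to 284 and 0 to 30 at day 10, 2208 to 3644 and 643 to 4941 at days 27 to 30, and 24 to 3317, 6 to 35 and 1 to 2345 for the lines at day 0, at day 4 and in the day 4 change. Members called ranged from 1 to 4 and 2 to 4 at day 4, 0 to 3 and 0 to 1 at day 10, and 0 to 1 for the lines at day 0. Log2 fold changes whose sign turned ranged from -0.66 to 1.51 for Dppa2 at PGK day 4, -2.86 to 4.95 for Tcl1 at E14 day 10, -0.86 to 1.04 for Dppa2 between lines at day 0, -2.15 to 3.24 for Tcl1 and -0.93 to 3.33 for Dppa5a between lines at day 10, and, for the day 4 change between lines, -0.73 to 0.40 for Dppa4 and -0.28 to 4.08 for Ooep. The cause was not tested. Of the members' other alternative fold changes, 470 kept direction and side of the threshold, 22 gained and 26 lost the call. The shallow E14 diff3 libraries at day 0 and day 4 limit the lowest levels there.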
